A study of Mus musculus with 192 samples.

Results

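Embryonic stem (ES) cells of the mouse line R1 were compared 1 by 1 for their level of Zfp42 (Rex1) RNA: 13 Zfp42-high wells were set against 13 Zfp42-low wells, 26 of the 96 wells on a microfluidic chip. A well was used if it held at least 53000 molecules from genes and at most 30000 spike-in molecules, and if Krt8 and Krt18 together gave under 25 of every 10000 gene molecules. Well E02 was left out by name. Of the 96 wells, 47 had too few gene molecules, 2 had too many spike-in molecules, 7 reached the keratin limit and 1 was E02, so that 39 passed. These were ranked by Zfp42 molecules per 10000 gene molecules and divided into 3 groups of 13, called Zfp42-high, Zfp42-middle and Zfp42-low.

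The study counted RNA molecules in single cells with molecular barcodes, using a chip sized for cells of 10 to 17 µm. R1 cells had been cultured on irradiated mouse embryonic fibroblasts (MEF) as feeders until confluent. Feeders were let settle out, dead and early apoptotic cells were removed with annexin V beads, and the rest was frozen in medium with 10% DMSO and thawed for loading. After 21 cycles of PCR the cDNA was barcoded by tagmentation, and the same libraries were also sequenced after 9 additional cycles, so each barcode belongs to both library forms and a column of the count table is 1 well. All groups share the cell line, the culture, the freezing and the chip, and no genotype or treatment differs between them. Cells of 1 culture are 1 sample, so no p-value was computed, and every spread given is a spread between wells.

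Zfp42 encodes a zinc finger protein made by cells of the inner cell mass and by ES cells in the naive state, the state close to the early epiblast before implantation. ES cells in serum switch between higher and lower Zfp42 expression, and the lower state is closer to the primed epiblast after implantation, which has other markers such as Dnmt3b and Otx2. Both states keep Pou5f1 (Oct4), the transcription factor that defines pluripotent cells together with Sox2.

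The promoters of Zfp42, the gene used for the ranking, and of Pim2, one of the genes with the smallest ratios, are shown because both contain an octamer motif (ATGCAAAT or its reverse complement), the sequence that POU-family factors such as Pou5f1 bind. Both come from RefSeq on GRCm38.p6 and cover the 250 bases before the RefSeq start, 5′ to 3′ on the strand of the gene, with the octamers in capitals. The Zfp42 stretch is chr8:43307010-43307259 on the minus strand, and the Pim2 stretch is chrX:7878056-7878305 on the plus strand.
Zfp42: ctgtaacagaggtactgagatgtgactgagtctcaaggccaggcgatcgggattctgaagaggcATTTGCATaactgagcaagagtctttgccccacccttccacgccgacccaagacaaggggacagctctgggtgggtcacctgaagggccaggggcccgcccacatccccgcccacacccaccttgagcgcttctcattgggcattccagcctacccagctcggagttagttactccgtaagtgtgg
Pim2: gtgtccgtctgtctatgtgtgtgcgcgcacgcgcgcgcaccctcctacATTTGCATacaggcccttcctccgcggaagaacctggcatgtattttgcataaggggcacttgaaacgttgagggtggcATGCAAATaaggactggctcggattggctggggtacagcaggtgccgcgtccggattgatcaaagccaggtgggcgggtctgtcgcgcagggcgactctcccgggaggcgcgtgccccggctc
The octamer lies 186 to 179 bases before the start of Zfp42, and at 202 to 195 and 123 to 116 bases before that of Pim2. An octamer on either strand was found in 3 of 71 promoters (4.23%) of genes called higher in Zfp42-high wells, as defined further on, in 2 of 113 (1.77%) of those called lower, in 18 of 2063 (0.873%) of all measured genes and in 526 of 32851 (1.60%) of all promoters in the table. In the same windows a Kruppel-like motif (GGGTGTGG or GGGCGTGG) was found in 19.7% of promoters of genes called higher, 15.9% of those called lower, 14.2% of all measured genes and 7.72% of all promoters. The cAMP response element TGACGTCA was found in 1.41%, 5.31%, 3.88% and 1.55% of the same sets, the AP-1 motif TGANTCA in 4.23%, 5.31%, 4.36% and 6.75%, and the CArG box in 0%, 2.65%, 1.31% and 1.47%, all on both strands. Any match is a description and not a bound site.

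Zfp42 (chromosome 8, 43295063 to 43306980 on GRCm38, minus strand) had from 9.67 to 30.1 molecules per 10000 gene molecules in the Zfp42-high wells, with a median of 16.5. The Zfp42-middle wells had from 2.83 to 9.56, with a median of 3.18, and the Zfp42-low wells from 1.49 to 2.75, with a median of 2.05. These values chose the groups and are a description only. The wells at the edges were close to each other: well G05 was the lowest Zfp42-high well with 9.67 (83 molecules), and B06 was the highest Zfp42-middle well with 9.56 (117 molecules). At the other edge, well F05 was the highest Zfp42-low well with 2.75 (26 molecules), and A03 was the lowest Zfp42-middle well with 2.83 (21 molecules). Of the Zfp42 molecules, 59.3% came from uniquely matched reads.

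Depth and composition were close but not equal between the groups. Gene molecules per well were 53975 to 149091 (median 91388) in Zfp42-high wells and 83061 to 145734 (median 100916) in Zfp42-low wells, and the median number of detected genes was 6551 in Zfp42-high and 6650 in Zfp42-low wells. Spike-in molecules had medians of 7882 in Zfp42-high and 7992 in Zfp42-low wells, and mitochondrially encoded molecules made up a median of 10.96% in Zfp42-high wells against 10.1% in Zfp42-low wells. On the chip, row A held 3 Zfp42-high and 0 Zfp42-low wells, and row B held 0 Zfp42-high and 4 Zfp42-low wells. The part of depth and chip position in the ratios was examined only by the alternatives given in the closing section.

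**Figure D1:**
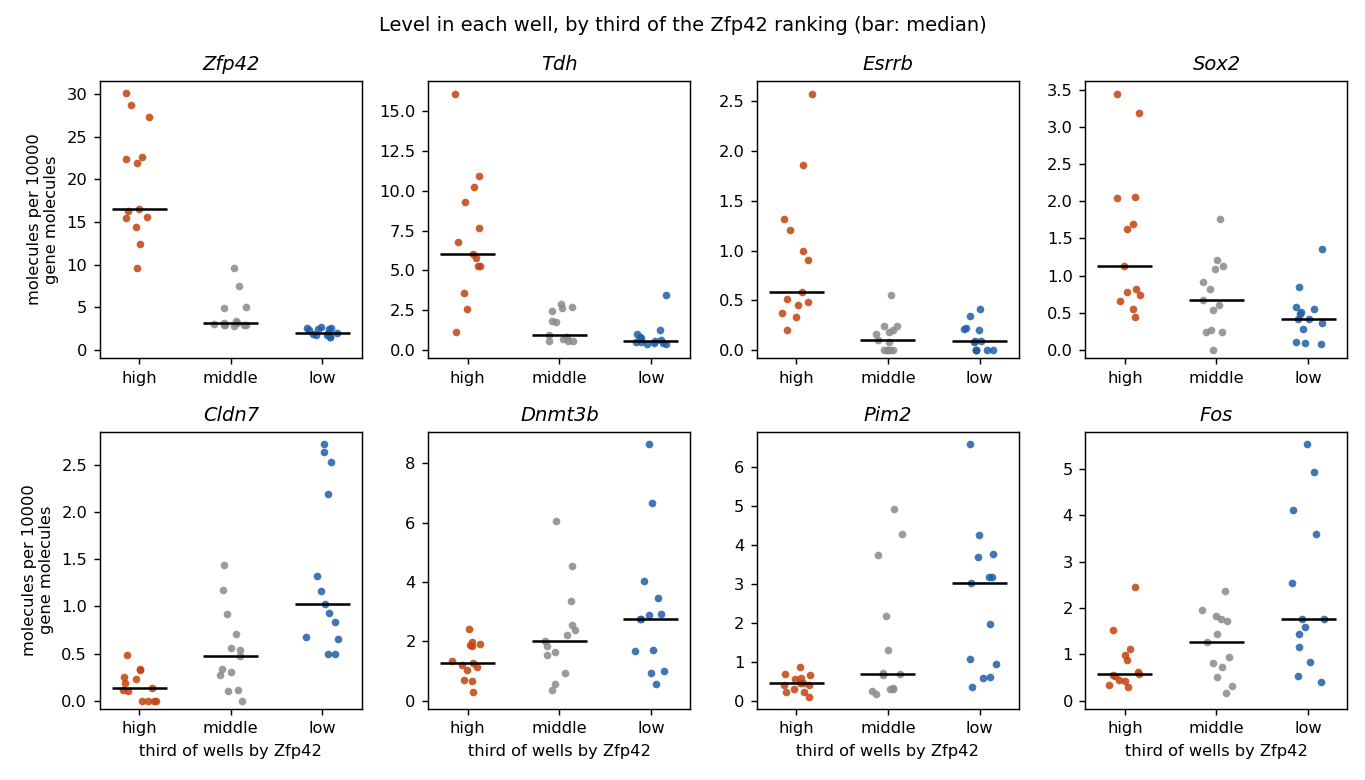
Molecules per 10000 gene molecules of 8 genes in each of the 39 wells, with 13 Zfp42-high, 13 Zfp42-middle and 13 Zfp42-low wells from left to right; bars are medians. Zfp42 chose the groups. Tdh, Esrrb and Sox2 lie higher in Zfp42-high wells, with medians of 6.03, 0.58 and 1.13, and Cldn7, Dnmt3b, Pim2 and Fos lie lower, with medians of 0.13, 1.27, 0.45 and 0.57. Esrrb was below the level minimum and was not called.

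The genes that mark the groups beside Zfp42 ran in both directions. Tdh, the threonine dehydrogenase that mouse ES cells use to turn threonine into glycine and acetyl-CoA, had from 1.17 to 16.1 molecules per 10000 in Zfp42-high wells (median 6.03), against 0.36 to 3.47 in Zfp42-low wells (median 0.59). Of the 13 Zfp42-high wells, 11 were above every Zfp42-low well. Summed over wells, Tdh had 929 molecules in Zfp42-high and 114 in Zfp42-low wells, a log2 ratio of mean levels of 2.89. Esrrb, an orphan nuclear receptor of the naive network, had 0.20 to 2.58 (median 0.58) in Zfp42-high wells and 0 to 0.42 (median 0.09) in Zfp42-low wells. It was below the level minimum that is defined further on, and so was not called. It gave 117 molecules, with an exact 95% Poisson interval of 96.8 to 140.2, in Zfp42-high wells and 18 molecules, with an interval of 10.7 to 28.4, in Zfp42-low wells. These intervals cover counting error only: for the 46 spike-ins averaging 1 molecule a well or more, the median variance over wells was 3.07 times the mean.

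Cldn7, a tight junction claudin, was the 1 measured gene of 2813 (0.0355%) whose wells did not overlap between the groups. It had from 0 to 0.48 molecules per 10000 in Zfp42-high wells (median 0.13) and from 0.49 to 2.72 in Zfp42-low wells (median 1.03). The sums were 21 molecules in Zfp42-high and 183 in Zfp42-low wells, a log2 ratio of -2.45. Dnmt3b, a de novo DNA methyltransferase of the postimplantation epiblast, had 0.29 to 2.43 (median 1.27) in Zfp42-high wells and 0.55 to 8.64 (median 2.75) in Zfp42-low wells. Its groups overlapped, with 8 Zfp42-low wells above every Zfp42-high well, and the log2 ratio was -1.12.

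Across all genes, 2813 other than Zfp42 had a mean level of at least 0.5 per 10000 over the 39 wells and are called measured. A gene was called higher or lower when the ratio of mean levels, with 0.1 added to both means, was at least 1.5-fold with all wells and also without any 1 well. By this rule 91 genes (3.23%) were higher and 166 (5.9%) were lower in Zfp42-high wells. At least a 2-fold ratio was reached by 49 of the 91 and by 78 of the 166. The median log2 ratio of all measured genes was -0.05, and 45.4% of them had the higher mean in Zfp42-high wells. With counts divided by spike-in molecules, 159 genes were higher and 102 lower, so that 60.9% of calls were higher against 35.4% with division by gene molecules. That division moved the median of all measured genes to 0.08.

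**Figure D2:**
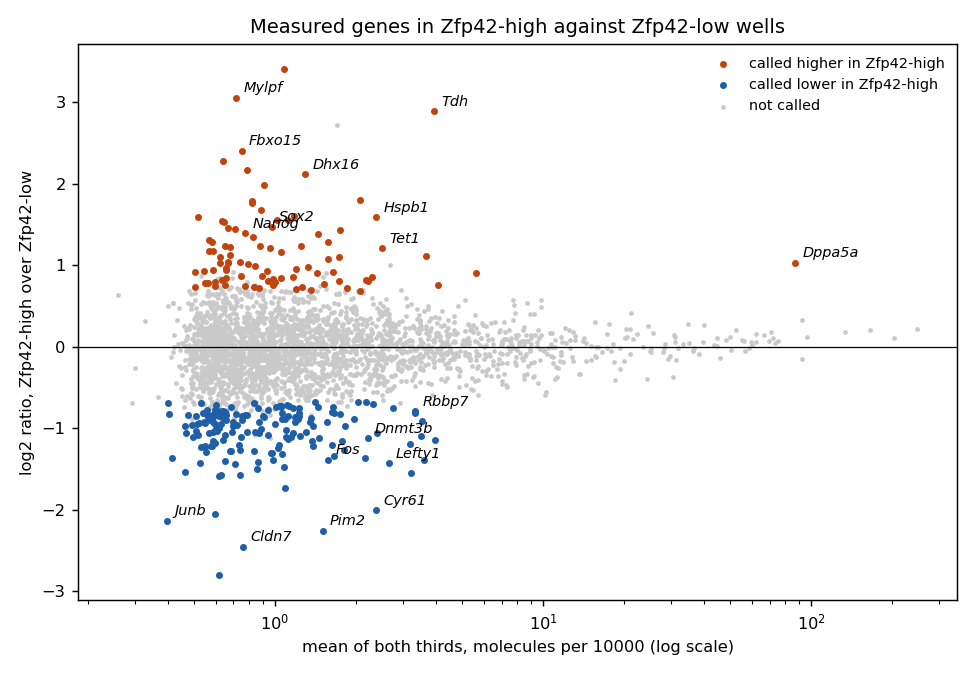
Log2 ratio of mean level in Zfp42-high over Zfp42-low wells against the mean of both groups (molecules per 10000, log axis) for the 2813 measured genes, 1 point a gene. The 91 genes called higher and the 166 called lower are coloured, Tdh lies at 2.89 and Cldn7 at -2.45, and most points of high mean level lie near 0.

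Besides Tdh, the genes with the largest ratios, ranked by the ratio that remained without any 1 well, were Mylpf, Fbxo15, Dhx16, Ooep, Dnmt3l, Spp1, Klf2, Sgk1, Mreg, Hspb1 and Chchd10. Of these, Mylpf, Fbxo15, Dnmt3l, Spp1, Klf2, Sgk1 and Mreg reached the level minimum through the Zfp42-high wells and were not called when the minimum was set in Zfp42-middle wells. Dhx16, a DEAH-box RNA helicase of the spliceosome, had 0.74 to 4.84 molecules per 10000 in Zfp42-high wells (median 1.69) and 0.09 to 1.32 in Zfp42-low wells (median 0.30), a log2 ratio of 2.12. In 10 of 13 Zfp42-high wells its level was above every Zfp42-low well. Across the 39 wells the Spearman rho with Zfp42 was 0.79 for Dhx16 and 0.81 for Tdh, whose values share each well's total of molecules. Both genes were picked for large ratios between groups of this same ranking, so a high rho over the 39 wells follows from that choice. Within the 13 Zfp42-high wells alone, rho was 0.59 for Dhx16 and 0.42 for Tdh.

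Mylpf, a regulatory light chain of fast muscle myosin, had 0 to 4.98 (median 1.01) in Zfp42-high wells against 0 to 0.35 (median 0.07) in Zfp42-low wells. It gave 171 molecules in Zfp42-high and 11 in Zfp42-low wells. Chchd10, a protein of the mitochondrial intermembrane space, had 0.52 to 11.1 (median 2.49) in Zfp42-high wells against 0.30 to 1.58 (median 0.91) in Zfp42-low wells, and 12 of 13 Zfp42-high wells exceeded every Zfp42-low well. Hspb1, a small heat shock protein, had medians of 3.40 in Zfp42-high and 1.18 in Zfp42-low wells, but 13.6% of its molecules came from unique reads, so its identity is uncertain. Mreg, melanoregulin, had a log2 ratio of 3.40, and well A08 alone had 20.8 per 10000, while its median was 0.23 in Zfp42-high and 0.09 in Zfp42-low wells. Sgk1, a serum- and glucocorticoid-induced kinase, had medians of 1.32 in Zfp42-high and 0.21 in Zfp42-low wells.

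The smallest ratios after Cldn7 belonged to Pim2, Junb, Cyr61, Fst, Marcks, Rbpms2, Tpm4, Dusp1, Prtg, Vamp8 and Zfp36. Fst and Vamp8 were not called when the minimum was set in Zfp42-middle wells. Pim2, a serine/threonine kinase (chromosome X, 7878262 to 7883432), had 0.10 to 0.87 molecules per 10000 in Zfp42-high wells (median 0.45) and 0.34 to 6.58 in Zfp42-low wells (median 3.03), a log2 ratio of -2.26. Of the Zfp42-low wells, 10 of 13 were above every Zfp42-high well. In Zfp42-middle wells Pim2 had 0.18 to 4.91, so these wells covered much of both other ranges. Marcks, an actin-binding substrate of protein kinase C, had medians of 0.11 in Zfp42-high and 0.82 in Zfp42-low wells, with a log2 ratio of -2.05. Tpm4, a tropomyosin, had 0.11 to 1.10 in Zfp42-high and 0.57 to 3.34 in Zfp42-low wells, with a log2 ratio of -1.48. Prtg, protogenin, a receptor of the immunoglobulin superfamily found in the early embryo, had medians of 0.41 in Zfp42-high and 1.04 in Zfp42-low wells. Fst, follistatin, an activin antagonist, reached 9.16 in 1 Zfp42-low well while the medians were 0.10 in Zfp42-high and 0.18 in Zfp42-low wells, and its call held in 8 of 14 alternatives.

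**Figure D3:**
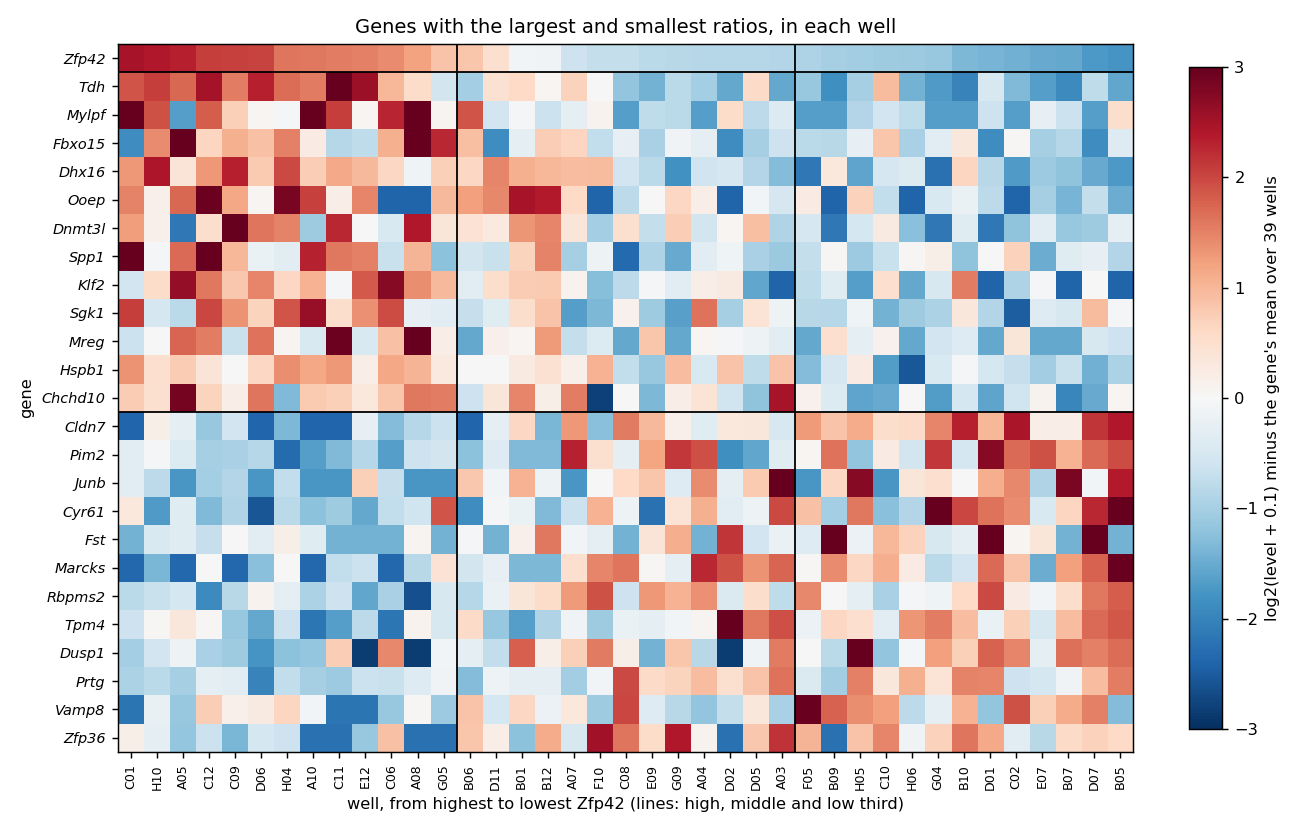
Levels of Zfp42 and of the 12 genes with the largest and the 12 with the smallest ratios in each of the 39 wells, ordered from the highest Zfp42 on the left to the lowest on the right; colour is log2(level + 0.1) minus the gene's mean over the wells. Lines separate the 13 Zfp42-high, 13 Zfp42-middle and 13 Zfp42-low wells, and single genes vary between wells of a group, as Pim2 does over 0.18 to 4.91 per 10000 in Zfp42-middle wells.

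Genes of the naive state were higher in Zfp42-high wells. All 26 listed genes had the higher mean there, against 41.9% of the 13669 genes with any molecule in the passing wells, and the median log2 ratio of the 26 was 1.20. Their summed level was 13.6 to 31.99 per 10000 (median 23.3) in Zfp42-high wells, 3.80 to 15.2 (median 6.06) in Zfp42-middle wells and 3.07 to 11.7 (median 5.00) in Zfp42-low wells, so no Zfp42-low well reached the lowest Zfp42-high well. Without Tdh the medians were 15.3 in Zfp42-high and 4.53 in Zfp42-low wells. Under the alternative ways of grouping and scaling, from 20 to 26 of the 26 kept the higher mean in Zfp42-high wells, with 20 for medians in place of means. Tdh was listed here because of its known naive expression. Tdh and Esrrb, a gene of the naive network, also mark the groups, so their direction is no independent support.

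Of these 26 genes 7 were measured and 6 of them were called higher, against 3.23% of all measured genes: Fbxo15, Klf2, Mybl2, Ooep, Spp1 and Tdh. Fbxo15, Klf2 and Spp1 reached the level minimum through the Zfp42-high wells and were not called when the minimum was set in Zfp42-middle wells, so the count of calls is in part fixed by the filter. Fbxo15, an F-box protein often used as a reporter of pluripotency, had 0 to 5.81 (median 0.66) in Zfp42-high and 0 to 0.54 (median 0.11) in Zfp42-low wells. Klf2, a Kruppel-like factor of the naive network, had 0.26 to 3.39 (median 1.00) in Zfp42-high and 0 to 1.44 (median 0.21) in Zfp42-low wells, a log2 ratio of 1.79. Ooep, a protein of the oocyte's subcortical complex, had medians of 1.07 in Zfp42-high and 0.21 in Zfp42-low wells. Spp1, osteopontin, had medians of 0.93 in Zfp42-high and 0.30 in Zfp42-low wells. Mybl2 (B-Myb), a cell cycle transcription factor, had medians of 1.97 in Zfp42-high and 0.69 in Zfp42-low wells, and 32.5% of its molecules came from unique reads.

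Klf4, another Kruppel-like factor, was measured but not called, with medians of 0.88 in Zfp42-high and 0.77 in Zfp42-low wells and 38.7% unique reads. The other 19 naive genes were below the level minimum, and those named here were picked after their values were seen. Tfcp2l1, a transcription factor downstream of LIF, gave 102 molecules (95% Poisson interval 83.2 to 123.8) in Zfp42-high wells and 18 (10.7 to 28.4) in Zfp42-low wells. Tcl1, a co-activator of the kinase Akt, gave 125 molecules in Zfp42-high and 19 in Zfp42-low wells. Jam2, a junctional adhesion molecule, gave 86 in Zfp42-high and 10 in Zfp42-low wells, and Zfp57, a zinc finger protein that protects imprints, gave 82 in Zfp42-high and 23 in Zfp42-low wells. Pecam1, an adhesion molecule of the inner cell mass, gave 32 molecules in Zfp42-high and 2 in Zfp42-low wells, and 13 of the 32 were in well H04. Nr5a2, a nuclear receptor, gave 15 in Zfp42-high and 0 in Zfp42-low wells. Klf5, Tbx3 and Prdm14, further transcription factors of the list, had 48, 21 and 3 molecules in Zfp42-high wells against 36, 10 and 0 in Zfp42-low wells.

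Of the 14 core pluripotency genes 13 were measured, 6 were called higher and 0 were called lower, against 3.23% and 5.9% of all measured genes, with a median log2 ratio of 0.69 among the measured ones. Sox2, the partner of Pou5f1, had 0.44 to 3.44 (median 1.13) in Zfp42-high and 0.09 to 1.36 (median 0.42) in Zfp42-low wells, a log2 ratio of 1.47. Nanog, a homeobox factor known to vary between ES cells, had 0 to 3.87 (median 0.88) in Zfp42-high and 0.10 to 0.98 (median 0.40) in Zfp42-low wells, and 5 of 13 Zfp42-high wells were above every Zfp42-low well. Dppa5a, a developmental pluripotency-associated protein that binds RNA, had 62.1 to 181.5 (median 115.0) in Zfp42-high and 18.95 to 139.7 (median 42.2) in Zfp42-low wells, a log2 ratio of 1.03. Dppa2, a chromatin protein, had medians of 1.27 in Zfp42-high and 0.41 in Zfp42-low wells, and Sall4, a zinc finger factor, had medians of 1.36 in Zfp42-high and 0.75 in Zfp42-low wells and kept its call in 8 of 14 alternatives. Gdf3, a ligand of the TGF-beta family, had medians of 1.55 in Zfp42-high and 0.76 in Zfp42-low wells.

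Pou5f1 was not called: it had 1.52 to 3.49 (median 2.30) in Zfp42-high and 0.57 to 3.25 (median 2.06) in Zfp42-low wells, a log2 ratio of 0.32, with 42.2% unique reads. Every well of both groups held RNA of Pou5f1, the defining marker of the labelled cell type. Utf1, a chromatin factor of ES cells, had a log2 ratio of -0.14, and Tdgf1 (Cripto), the Nodal co-receptor, had medians of 7.80 in Zfp42-high and 11.4 in Zfp42-low wells and a log2 ratio of -0.36. Fgf4, a growth factor activated by Pou5f1 and Sox2, was below the level minimum, with 61 molecules in Zfp42-high and 13 in Zfp42-low wells. It was picked after its values were seen.

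Genes of the primed or formative state ran lower in Zfp42-high wells. Of the 24 found in the table, 5 had the higher mean in Zfp42-high wells, against 41.9% of all genes with a molecule, and the median log2 ratio was -0.61. Of the 11 measured, 0 were called higher and 5 were called lower, against 3.23% and 5.9% of all measured genes: Cldn6, Cldn7, Dnmt3b, Dusp6 and Pim2. Cldn7 and Dnmt3b also mark the groups, so their direction is no independent support. Cldn6, a claudin, had 0.11 to 1.46 (median 0.47) in Zfp42-high and 0.33 to 4.53 (median 1.21) in Zfp42-low wells, a log2 ratio of -1.11. Dusp6, the phosphatase that limits ERK, had medians of 0.34 in Zfp42-high and 0.82 in Zfp42-low wells, and kept its call in 8 of 14 alternatives. Etv5, an ETS factor, was higher in the mean without a call, with medians of 2.16 in Zfp42-high and 1.14 in Zfp42-low wells and 44.2% unique reads.

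The transcription factors that define the primed epiblast were below the level minimum, and were named after their values were seen. Pou3f1 (Oct6) gave 10 molecules (95% Poisson interval 4.80 to 18.4) in Zfp42-high wells and 42 (30.3 to 56.8) in Zfp42-low wells. Otx2, a homeobox factor, gave 2 molecules in Zfp42-high and 18 in Zfp42-low wells. Fgf5, a growth factor of the epiblast, gave 3 in Zfp42-high and 18 in Zfp42-low wells. T (Brachyury), a mesoderm factor, gave 2 molecules in Zfp42-high and 33 in Zfp42-low wells, and well D07 alone held 13 of the 33. Sox3, a relative of Sox2, gave 0 molecules in Zfp42-high wells and 9 in Zfp42-low wells, 5 of them in well G04.

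Genes of DNA methylation did not share a direction. Of 14 genes 8 were measured, and their median log2 ratio was 0.05. Of the 8, 2 were called higher and 1 lower, against 3.23% and 5.9% of all measured genes. The lower one was Dnmt3b, which marks the groups, so its direction is no independent support. The call of Dnmt3l was lost with the minimum set in Zfp42-middle wells, so the count of higher calls is in part fixed by the filter. Dnmt3l, the inactive partner of the de novo methyltransferases, had 0 to 5.03 (median 0.54) in Zfp42-high and 0 to 0.43 (median 0.11) in Zfp42-low wells, and was called higher with a log2 ratio of 2.28, opposite to Dnmt3b. Tet1, which oxidises methylcytosine, was also called higher, with 0.90 to 9.47 (median 2.88) in Zfp42-high and 0.42 to 2.88 (median 1.41) in Zfp42-low wells. The maintenance methyltransferase Dnmt1 gave 129 molecules in each group, and its cofactor Uhrf1 gave 103 in Zfp42-high and 110 in Zfp42-low wells.

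Of the 16 Polycomb genes, whose complexes place repressive histone marks, 9 were measured, 4 were called higher and 1 lower, against 3.23% and 5.9% of all measured genes. Over all 16, 9 had the higher mean in Zfp42-high wells. Eed, a core subunit of PRC2, had 0.49 to 4.30 (median 2.19) in Zfp42-high and 0.09 to 1.85 (median 0.96) in Zfp42-low wells, a log2 ratio of 1.07. Jarid2 and Mtf2, accessory subunits of PRC2, had log2 ratios of 0.80 and 0.77, and Cbx7, a chromobox subunit of PRC1, had 0.86. Rbbp7, a histone-binding subunit shared with other complexes, was called lower, with medians of 2.38 in Zfp42-high and 4.57 in Zfp42-low wells. The calls of Mtf2 and Cbx7 held in 7 and 8 of 14 alternatives, and that of Eed in all 14.

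**Figure D4:**
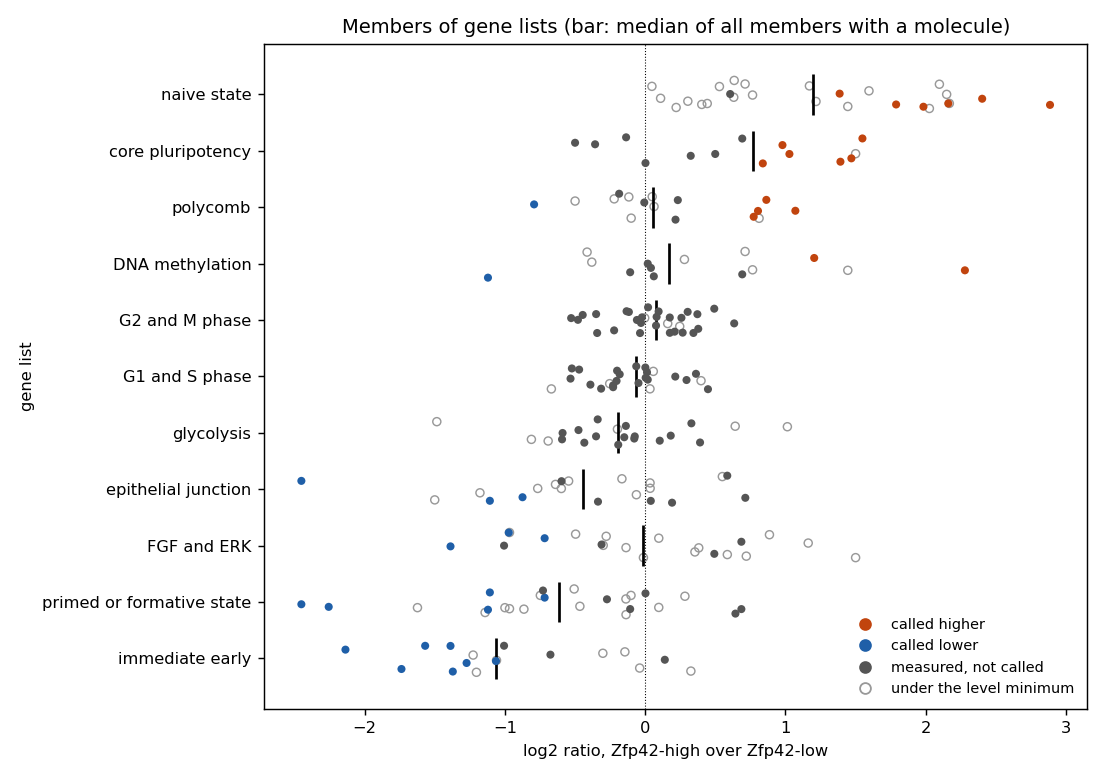
Log2 ratio of mean level, Zfp42-high over Zfp42-low wells, for the members of 11 gene lists, 1 point a gene with any molecule; filled points are measured genes and bars are medians over all members with a molecule. The naive list has a median of 1.20, the primed or formative list -0.61 and the immediate early list -1.06, while the lists for G2 and M phase and for G1 and S phase have none called.

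In the Nodal pathway, which primed cells depend on, 6 of 18 genes were measured. Of these 1 was called higher and 2 lower, against 3.23% and 5.9% of all measured genes. Gdf3 was called higher, as above, and Lefty1, a secreted inhibitor and target of Nodal, was called lower, with 0.31 to 8.67 (median 0.82) in Zfp42-high and 0.21 to 19.7 (median 1.84) in Zfp42-low wells. The Zfp42-middle wells had 0.91 to 13.5 Lefty1 (median 4.18), above both. Lefty2, the paralogue, had medians of 0.58 in Zfp42-high and 0.47 in Zfp42-low wells and was not called. Skil, a SMAD corepressor, was called lower with a log2 ratio of -0.90, which held in 7 of 14 alternatives. It reached the level minimum through the Zfp42-low wells and was not called when the minimum was set in Zfp42-middle wells. Smad3 and Nodal, below the level minimum, were picked after their values were seen. The signal transducer Smad3 gave 0 molecules in Zfp42-high and 18 in Zfp42-low wells. Nodal itself gave 38 in Zfp42-high and 57 in Zfp42-low wells.

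In the FGF and ERK pathway, which drives exit from the naive state, 3 of 7 measured genes were called lower and 0 higher, against 5.9% and 3.23% of all measured genes. Fgfr1, an FGF receptor, had 0 to 0.77 (median 0.23) in Zfp42-high and 0 to 1.53 (median 0.61) in Zfp42-low wells, a log2 ratio of -0.97. Dusp6 and Fos were the others, and they are also counted in the primed or formative and the immediate early lists. Etv5, the most abundant gene of the pathway list, went the other way without a call, as above. Over all 21 genes 10 had the higher mean in Zfp42-high wells, near the 41.9% of all genes with a molecule. Egr1, an immediate target of ERK, had a log2 ratio of -1.01 and was not called.

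The LIF and BMP lists ran in different directions. In the LIF list 10 of 14 genes had the higher mean in Zfp42-high wells, against 41.9% of all genes with a molecule. The median log2 ratio of the 14 was 0.44, and 5 were measured. Of these 2 were called lower (Junb and Pim2) and 0 higher, against 5.9% and 3.23% of all measured genes. Junb is also counted in the immediate early list and Pim2 in the primed or formative list. Pim1 and Pim3, kinases related to Pim2, had log2 ratios of 0.47 and 0.72 and were not called. Stat3, the transducer of LIF, was below the level minimum with 74 molecules in Zfp42-high and 35 in Zfp42-low wells, and was picked after its values were seen. In the BMP list 3 of 10 genes had the higher mean in Zfp42-high wells, and 3 were measured, with a median log2 ratio of -0.89. Of the 3 measured, 1 was called lower and 0 higher, against 5.9% and 3.23% of all measured genes. The called one was Id2, an inhibitor of bHLH factors and a BMP target, with medians of 0.45 in Zfp42-high and 0.76 in Zfp42-low wells. Id2 kept the call in 10 of 14 alternatives, and the related Id3 had a log2 ratio of 0.20. Of 16 Wnt genes only Ctnnb1 (beta-catenin) was measured, with a log2 ratio of -0.34, and it was not called.

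Immediate early genes, which respond within minutes to growth factors or stress, were lower in Zfp42-high wells. Of 10 measured members 7 were called lower (Btg2, Dusp1, Fos, Fosb, Junb, Klf6 and Zfp36), against 5.9% of all measured genes, and 2 of all 17 had the higher mean in Zfp42-high wells, against 41.9% of all genes with a molecule. The summed level was 3.65 to 13.9 per 10000 (median 6.84) in Zfp42-high wells, 4.34 to 22.8 (median 9.32) in Zfp42-middle wells and 6.72 to 38.02 (median 14.2) in Zfp42-low wells, with overlap between all 3. Fos, a subunit of AP-1, had 0.29 to 2.45 (median 0.57) in Zfp42-high and 0.41 to 5.53 (median 1.75) in Zfp42-low wells, a log2 ratio of -1.39. Dusp1, a phosphatase of MAP kinases, had 0 to 1.86 (median 0.26) in Zfp42-high and 0.22 to 6.86 (median 1.60) in Zfp42-low wells. Junb, another AP-1 subunit, gave 11 molecules in Zfp42-high and 105 in Zfp42-low wells. Zfp36, an RNA-binding protein that speeds mRNA decay, gave 25 in Zfp42-high and 85 in Zfp42-low wells, and Btg2, an antiproliferative factor, gave 42 in Zfp42-high and 163 in Zfp42-low wells. The calls of Junb and Klf6 held in 10 and 9 of 14 alternatives. Ier2 was the measured member with the higher mean in Zfp42-high wells, with 124 molecules in Zfp42-high and 118 in Zfp42-low wells.

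Cyr61 and Ctgf, secreted matricellular proteins that are also induced rapidly, were counted with the feeder fibroblast markers. Cyr61 had 0.11 to 4.55 (median 0.58) in Zfp42-high and 0.43 to 11.3 (median 3.26) in Zfp42-low wells, and was called lower with a log2 ratio of -2.01. Ctgf gave 65 molecules in Zfp42-high and 168 in Zfp42-low wells, 76 of them in well B05, and was not called. Of the 22 feeder markers 10 were measured, and Cyr61, Serpinh1 (a collagen chaperone) and Tagln (transgelin, an actin-binding protein) were called lower. That is 3 called lower and 0 higher, against 5.9% and 3.23% of all measured genes. The call of Serpinh1 held in 8 of 14 alternatives. The summed level of the 22 was 8.16 to 15.9 per 10000 (median 10.3) in Zfp42-high wells and 8.21 to 28.1 (median 16.7) in Zfp42-low wells. The defining fibroblast markers were at or near 0: Col1a1, Col1a2 and Col3a1 gave 2, 4 and 2 molecules in Zfp42-high and 1, 5 and 1 in Zfp42-low wells, and Thy1 and Postn gave 0 in both. Well D02, in neither compared group, had a sum of 217.6. The part of feeder RNA in the levels of Cyr61, Serpinh1 and Tagln was not tested.

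Of 20 genes of epithelial junctions 9 were measured. Of these 3 were called lower (Cldn6, Cldn7 and Cdh1) and 0 higher, against 5.9% and 3.23% of all measured genes. Cldn6 and Cldn7 were also counted in the primed or formative list, and Cldn7 marks the groups. Cdh1 (E-cadherin), which holds ES cells together, had 0.19 to 1.69 (median 1.05) in Zfp42-high and 0.33 to 3.51 (median 1.85) in Zfp42-low wells, a log2 ratio of -0.87. Its call held in 9 of 14 alternatives and was lost with division by spike-in molecules, where the median of the measured junction genes was -0.01 in place of -0.34. Epcam, another epithelial adhesion molecule, had a log2 ratio of -0.60, and Spint2, a protease inhibitor, had 0.59, and neither was called. Krt8 was called lower as well, but Krt8 and Krt18 were used to choose the wells and well H05, a Zfp42-low well, had 20.5 per 10000 of them together, close under the limit.

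Around Tdh, the other genes of its pathway ran both ways. Of 18 genes of threonine, serine and glycine metabolism 17 were measured, with a median log2 ratio of -0.07, or 0.09 with division by spike-in molecules. Of the 17, 2 were called higher, Tdh among them, and 1 lower, against 3.23% and 5.9% of all measured genes. Gcsh, a carrier protein of the glycine cleavage system, was called higher, with medians of 2.58 in Zfp42-high and 1.25 in Zfp42-low wells. Phgdh, the first enzyme of serine synthesis, was called lower, with medians of 2.01 in Zfp42-high and 3.86 in Zfp42-low wells, 41.3% unique reads and a call in 8 of 14 alternatives. Psat1, the next enzyme of serine synthesis, had a log2 ratio of -0.13. Of 15 measured genes of glycolysis 0 were called, against 3.23% called higher and 5.9% called lower of all measured genes. Ldha, lactate dehydrogenase, had medians of 7.83 in Zfp42-high and 13.4 in Zfp42-low wells, and Gapdh, another glycolytic enzyme, had 45.7 in Zfp42-high and 50.2 in Zfp42-low wells.

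None of the genes listed for the cell cycle phases or for the p53 response was called. The lists do not hold every such gene, and some cell cycle genes outside them were called in both directions. Mybl2, a cell cycle factor counted in the naive list, and Cenpm were called higher, and Tk1 and Racgap1 were called lower. Of 20 measured genes of G1 and S phase and 27 of G2 and M phase, 0 were called. Their summed levels had medians of 39.9 and 66.9 per 10000 in Zfp42-high wells against 40.3 and 58.6 in Zfp42-low wells, and the ranges overlapped. With division by spike-in molecules 22 of the 27 G2 and M phase genes had the higher mean in Zfp42-high wells, against 15 with division by gene molecules. Their median log2 ratio was then 0.26, against 0.08 for all measured genes. Among 10 measured chaperones Hspb1 alone was called, and Hsp90ab1, a constitutive chaperone, had medians of 54.9 in Zfp42-high and 54.01 in Zfp42-low wells. Of 8 measured p53 genes 0 were called, with Trp53 itself at a log2 ratio of 0.41. All these counts stand beside 3.23% called higher and 5.9% called lower of all measured genes.

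None of the listed mesendoderm, neural or 2-cell-like genes reached the level minimum. Of 14 trophectoderm genes the keratins Krt8 and Krt18 were measured, and the summed level of the list was 2.32 to 4.55 per 10000 (median 2.82) in Zfp42-high wells and 2.28 to 22.1 (median 3.60) in Zfp42-low wells. Of 16 primitive endoderm genes 3 were measured, with 1 called lower and 0 higher, against 5.9% and 3.23% of all measured genes. The called one was Fst, which was not called when the minimum was set in Zfp42-middle wells and kept its call in 8 of 14 alternatives. The sum of the list was 1.01 to 4.39 (median 2.27) in Zfp42-high wells and 1.48 to 12.9 (median 2.93) in Zfp42-low wells. The trophectoderm factor Cdx2 gave 2 molecules in Zfp42-high and 0 in Zfp42-low wells. Mesendoderm genes summed to at most 0.31 per 10000 in a Zfp42-high well and 2.90 in a Zfp42-low well. Of 7 neural genes with a molecule 3 had the higher mean in Zfp42-high wells, against 41.9% of all genes with a molecule, and their median log2 ratio was 0. The most abundant, Nes (nestin), an intermediate filament of neural progenitors, gave 22 molecules in Zfp42-high and 108 in Zfp42-low wells. Without Nes the summed neural level had medians of 0.43 per 10000 in Zfp42-high and 0.27 in Zfp42-low wells. Genes of the 2-cell-like state, a rare ES cell state marked by Zscan4, gave 61 molecules in well A08, a Zfp42-high well, and at most 2 in every other passing well. Of 20 imprinted genes 7 were measured, with 3 called lower and 0 higher, against 5.9% and 3.23% of all measured genes. The called ones were Grb10 (a growth inhibitor), Mest and Snurf, with log2 ratios of -1.30, -1.01 and -0.82. The call of Mest held in 6 of 14 alternatives, and 0.0529% of Snurf molecules came from unique reads.

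The same genes were followed in the wells outside the comparison. In Zfp42-middle wells the mean level lay between the other groups for 81 of the 91 genes called higher and 133 of the 166 called lower, against 37.6% of all measured genes. Tdh, for example, had 0.54 to 2.88 (median 0.95) in Zfp42-middle wells, and Esrrb had 0 to 0.55 (median 0.10), close to Zfp42-low wells. The Zfp42-middle wells were placed by the same ranking, and the called genes were selected for a gap between the outer groups. A mean between these groups is made likely by that selection. Most measured genes were not called, so their 37.6% is not a like comparison, and these counts are a description only.

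In 46 wells below 53000 gene molecules that passed the other limits, ranked by Zfp42 in the same way, 15 high were set against 15 low wells. Zfp42 was less spread there, with medians of 8.60 per 10000 in the high and 3.97 in the low wells. Of the 91 genes called higher 61 (67.03%) had the higher mean in these high wells, against 43.1% of all measured genes. Of the 166 called lower 106 (63.9%) had the lower mean, but most of all measured genes also had the lower mean there. The median log2 ratio was 0.16 for the 91 and -0.17 for the 166, against -0.06 for all measured genes. Tdh had a log2 ratio of 0.86, Tet1 0.86, Esrrb 0.55 and Cldn7 -0.93 in these wells. The direction seen in the 39 wells was not kept by 4 of the 6 core pluripotency genes called higher: Gdf3 had -0.86, Nanog -0.33, Sox2 -0.22 and Dppa5a -0.22. Nor was it kept by Dnmt3b with 0.20, Junb with 0.29, Chchd10 with -0.66, Hspb1 with -0.16 and Fos with 0.04, among others. These wells held a median of 22592 gene molecules, and mitochondrially encoded molecules made up a median of 29.1%, against 10.96% in Zfp42-high and 10.1% in Zfp42-low wells. The part of the low RNA content in these differences was not tested.

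**Figure D5:**
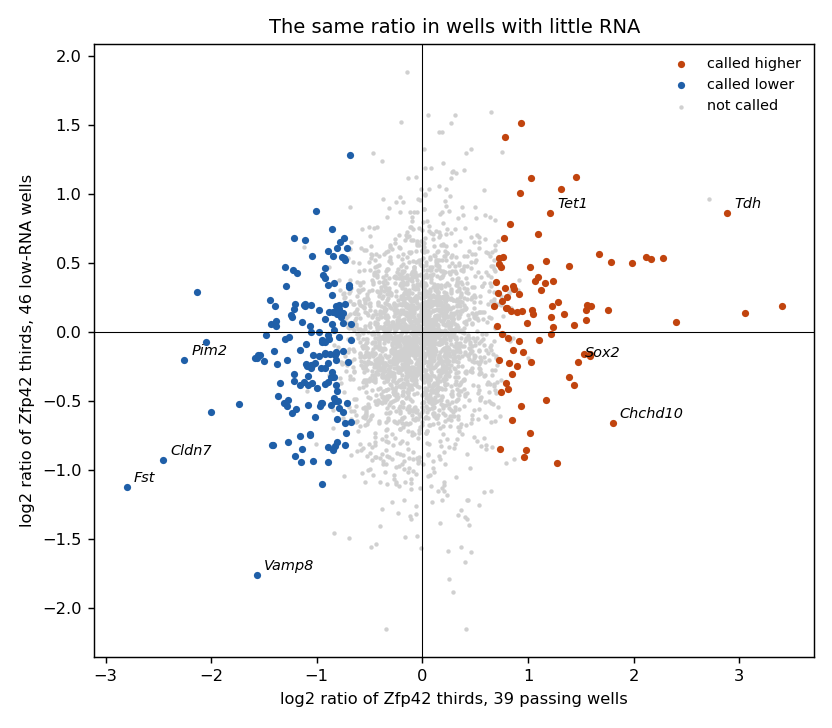
Log2 ratio of mean level between Zfp42-high and Zfp42-low wells among the 46 low-RNA wells (15 against 15, vertical axis) and among the 39 passing wells (13 against 13, horizontal axis) for the 2813 measured genes. Of the 91 genes called higher 61 lie above 0 on the vertical axis, and of the 166 called lower 106 lie below it. The median log2 ratios there are 0.16 and -0.17, against -0.06 for all measured genes.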

How the data were processed

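Molecule counts per feature and well were deposited by the authors as whole numbers, per the file headers, with reads of several matches assigned to their most 5' exonic match. The submitters' processing notes name Bowtie and mm10 (GRCm38), and no version is given in the sources used here. The table held 24264 genes, 96 spike-ins and 1554 repeat types; repeats and spike-ins stayed out of the totals, and 73.3% of gene molecules came from unique reads. Levels are molecules per 10000 gene molecules. The wells, gene lists, markers and alternatives were chosen with earlier results of these data known.

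By rule 118 genes were named. They were Zfp42 and the markers, and the 12 with the largest and the 12 with the smallest ratio after leaving out any 1 well. From each list up to 5 measured members with the highest mean and any called member were added. Of the 118, 12 had under 50% unique reads and are uncertain. Other genes were picked after their values were seen, also where the text does not say so. The call rule was tested on simulated data. No doublet caller was run and chamber images were not used. Gene coordinates are GENCODE M21 on GRCm38, and 91 of the 118 named genes had a promoter in RefSeq's GRCm38.p6 table. All steps ran in Python 3.11.15 with pandas 2.3.3, numpy 2.4.6, scipy 1.17.1 and matplotlib 3.10.9.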

Additional observations from a re-analysis of the deposited data

How the results depend on the processing

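All 14 alternatives were chosen with earlier results known, and 2 of them were added after seeing the data (the level minimum in Zfp42-middle wells, and leaving out chip rows A and B). The 91 genes called higher and 166 called lower became 159 and 102 with division by spike-in molecules, 171 and 264 with a ratio of medians, 33 and 72 with a minimum level of 1 per 10000, 385 and 689 with no minimum, and 25 and 23 with 1 added to both means. Groups of 9 wells in place of 13 gave 138 called higher. The other counts stayed within 1.5 times, and 79 of the 91 and 84 of the 166 were shared with division by spike-in molecules. Without chip rows A and B there were 109 and 150, and with wells thinned to 53975 molecules 114 and 189. All 57 named genes with a call kept their sign in the 14 alternatives, and 11 of them kept the call in each. No paired analysis was possible because the wells carry no replicate numbers that pair Zfp42-high with Zfp42-low wells. Few molecules limit what can be said of Otx2, Fgf5, Sox3, T and Nr5a2. One culture on one chip was measured, so the spread between cultures is unknown.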

Other observations

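Enzymes of cholesterol synthesis were picked out after the called genes had been seen, as were proteins of actin filaments, so their counts are descriptions. All 20 listed enzymes had a molecule, 10 were measured, 5 were called lower and 0 higher, against 5.9% and 3.23% of all measured genes. The called ones were Hmgcs1, Pmvk, Fdft1, Cyp51 and Sc4mol. Hmgcs1, which makes HMG-CoA, had 0.29 to 2.63 molecules per 10000 in Zfp42-high wells (median 0.66) and 0.16 to 5.36 in Zfp42-low wells (median 1.54). Sc4mol, a sterol demethylase, gave 99 molecules in Zfp42-high and 261 in Zfp42-low wells. The summed level was 5.28 to 16.3 (median 7.02) in Zfp42-high wells and 6.48 to 21.2 (median 14.9) in Zfp42-low wells, with overlap. The median log2 ratio of the 20 was -0.52, and -0.43 with division by spike-in molecules.

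Of 46 proteins of actin filaments 40 were measured, 12 were called lower and 4 higher, against 5.9% and 3.23% of all measured genes. Tpm1, a tropomyosin, had 0.90 to 3.71 per 10000 in Zfp42-high wells (median 1.76) and 0.87 to 16.7 in Zfp42-low wells (median 3.67), and Tagln2, a transgelin, had medians of 0.91 in Zfp42-high and 2.05 in Zfp42-low wells. Actr3 and Actr2, both subunits of the Arp2/3 complex, were called in opposite directions, with log2 ratios of -1.10 and 0.95. Actb, beta-actin, had a log2 ratio of -0.12 and was not called. The summed level of the 46 was 87.6 to 129.5 (median 115.4) in Zfp42-high wells and 93.8 to 252.5 (median 139.8) in Zfp42-low wells.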
